A study of Neurospora crassa with 6 samples.

Results

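The regulators and sugar sensors behind cellulase expression were measured as 8 genes, *clr-1* (NCU07705), *clr-2* (NCU08042), *xlr-1* (NCU06971), *cre-1* (NCU08807), *col-26* (NCU07788), *rco-3* (NCU02582), *glt-1* (NCU01633) and *hgt-1* (NCU10021) of the filamentous fungus *Neurospora crassa*. They were taken by locus number for their known roles in cellulase control and glucose sensing, and they are 8 of the 9872 entries of the expression table. RNA-seq was run on 3 strains, the wild type and the deletion mutants Δ*mak-1* and Δ*mak-2*, which each lack 1 mitogen-activated protein kinase gene, at 2 stages of growth. Vegetative hyphae came from liquid Vogel's medium, a glucose medium by the study's methods, shaken at 28 °C for 22 h. The protoperithecial stage, the start of female fruiting body formation, was sampled after 3.5 days at 25 °C in constant dark from cellophane laid on synthetic crossing plates with 0.1% sucrose. Each mutant was 1 strain from a stock centre, and the wild type was the only control at either stage. Each of the 6 conditions was 1 library, made from pooled RNA of 3 repeats, so no condition had a replicate. No test was run, since the strains are not replicates of each other, and differences are given as ratios. Stage, medium, sugar, temperature and culture age changed together and cannot be told apart. In bulk RNA, fewer cells of a type and less RNA per cell cannot be told apart either.

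When glucose is plentiful, *Neurospora* takes it up through transporters of low affinity and keeps the genes for other carbon sources off, a state called carbon catabolite repression in which the zinc finger protein CRE-1 is a main repressor. When the preferred sugar runs out, transporters of high affinity take over, and cellulose or xylan in the surroundings lets the zinc cluster activators CLR-1, CLR-2 and XLR-1 turn on cellulases and xylanases. Sensor proteins related to sugar transporters, of which RCO-3 is one, and regulators such as COL-26 tie the level of glucose to these programs.

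Values were RPKM, read counts divided by the length of the gene's exons and by the depth of the library, from libraries of 2602076 to 3668046 mapped reads. An entry was called higher or lower in a comparison when its ratio of RPKM was above 2 or below 0.5 and either library exceeded 10 RPKM. Intervals are exact 95% intervals of the read counts, and they cover counting error only. The *mak-2* gene had 0 reads in both Δ*mak-2* libraries. The *mak-1* gene, at the entry NCU11376, kept 50 and 52 reads in the vegetative and protoperithecial Δ*mak-1* libraries. That is 6.39 and 6.08 RPKM, where wild-type libraries had 42.1 and 148 RPKM. The study printed 0 RPKM for *mak-1* in both Δ*mak-1* samples, and this difference was not resolved here. The protoperithecial genes *app*, *poi-2* and *fsd-1* summed to 111 RPKM in vegetative and 2906 RPKM in protoperithecial wild type. *poi-2* alone was 2072 RPKM of the second sum. All 3 were called higher, where 46.5% of all tested entries were. The study reported the rise of these genes from the same libraries, so they are no separate check of the stage label. In Δ*mak-1* they summed to 61.7 and 80.5 RPKM and in Δ*mak-2* to 19.6 and 32.8 RPKM. These sums stayed below that of vegetative wild type and hardly set the stages apart in the mutants. Of the 3 markers, *app* and *poi-2* were at 0.560 to 4.91 RPKM in the mutants. *fsd-1* went from 58.6 to 74.6 RPKM in Δ*mak-1*, above the 60.4 RPKM of vegetative wild type, and from 11.4 to 29.3 RPKM in Δ*mak-2*, where it was called higher. On crossing medium all 3 were lower in each mutant than in the wild type, and none was at 0. Of all tested entries 8.35% were lower there in Δ*mak-1* and 10.7% in Δ*mak-2*. The 6 markers of conidia, the asexual spores, summed to 1038 RPKM in the wild type on that medium, to 22612 RPKM in Δ*mak-1* and to 25508 RPKM in Δ*mak-2*. None was at 0, and 6 of 6 were higher in each mutant, against 11.0% of all tested entries in Δ*mak-1* and 8.56% in Δ*mak-2*.

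**Figure D1:**
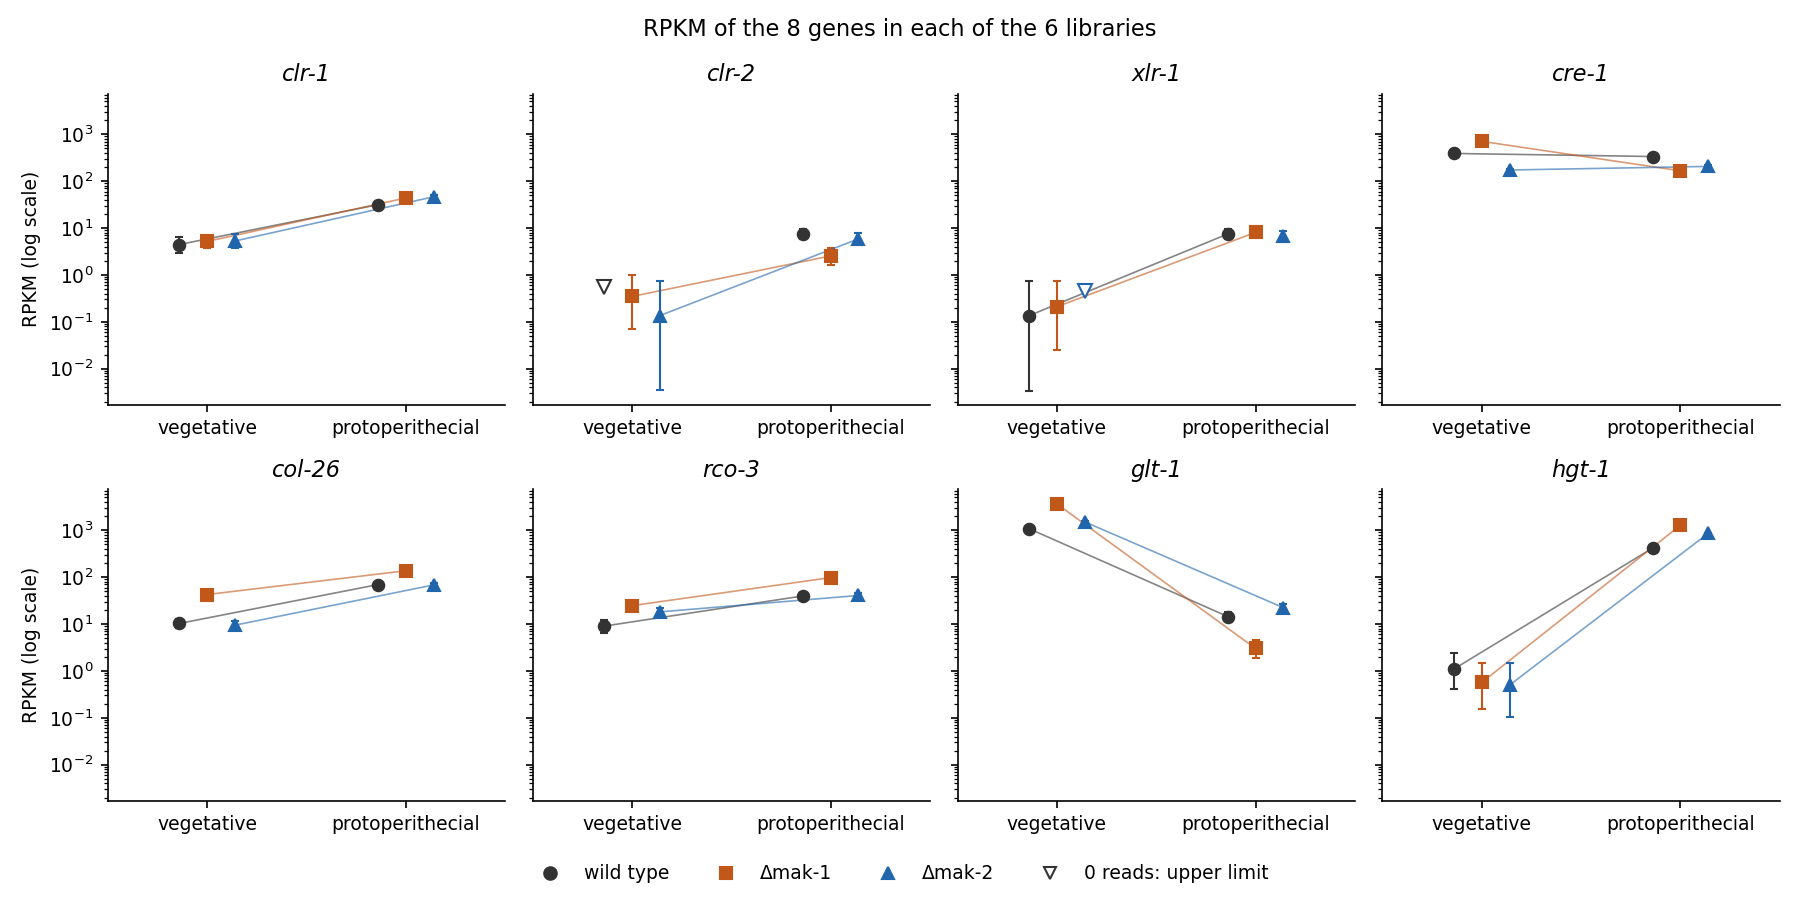
RPKM (log axis) of each gene in the 6 libraries, vegetative hyphae on the left and protoperithecial stage on the right of each panel, with exact 95% counting intervals; open triangles pointing down are upper limits where a library had 0 reads. *glt-1* runs down and *hgt-1* runs up in all 3 strains, *cre-1* lies between 166 and 706 RPKM throughout, and *clr-2* and *xlr-1* stay under 10 RPKM in every library.

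All 3 activators of the cellulose and xylan program were higher at the protoperithecial stage than in vegetative hyphae in each strain, although *clr-2* and *xlr-1* stayed at a low level. *clr-1*, the activator that acts upstream of *clr-2*, was at 4.46 RPKM in wild-type vegetative hyphae, 5.18 RPKM in Δ*mak-1* and 5.29 RPKM in Δ*mak-2*. It was at 31.5 RPKM in the wild type, 43.8 RPKM in Δ*mak-1* and 46.4 RPKM in Δ*mak-2* at the protoperithecial stage. The 3 vegetative libraries thus lay close together and all below the 3 protoperithecial ones. The stage ratio was 7.06 (4.70 to 11.0) in the wild type, 8.45 (6.06 to 12.1) in Δ*mak-1* and 8.78 (6.16 to 12.9) in Δ*mak-2*, and the intervals overlapped.

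*clr-2*, the activator that most directly drives cellulase genes, had 0 reads in wild-type vegetative hyphae, 3 reads (0.348 RPKM) in Δ*mak-1* and 1 read (0.136 RPKM) in Δ*mak-2*. The protoperithecial libraries had 63 reads (7.43 RPKM) in the wild type, 24 reads (2.55 RPKM) in Δ*mak-1* and 51 reads (5.89 RPKM) in Δ*mak-2*. Its highest library was the wild type and its lowest protoperithecial library was Δ*mak-1*. Against a floor of 3 reads in the vegetative library, the wild type was at least 16.6-fold higher at the protoperithecial stage, a bound that leaves out the counting error of the 63 reads. The exact interval of that ratio began at 13.1. The ratio was 7.32 (2.22 to 38.0) in Δ*mak-1* and 43.4 (7.44 to 1745) in Δ*mak-2*. *clr-2* never passed 10 RPKM and so was never called, but at the protoperithecial stage Δ*mak-1* had 0.343 (0.205 to 0.557) of the wild-type level, while *clr-1* had 1.39 (1.18 to 1.65). The ratio of *clr-1* to *clr-2* within the library was therefore 4.24 (3.20 to 5.69) in the wild type, 17.2 (11.4 to 27.2) in Δ*mak-1* and 7.89 (5.87 to 10.8) in Δ*mak-2*. The conidial and protoperithecial markers named above moved with both mutants at this stage, and their part in this and the following mutant differences at that stage was not tested.

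*xlr-1*, the activator of xylan and xylose genes, had 1 read (0.136 RPKM) in wild-type vegetative hyphae, 2 reads (0.210 RPKM) in Δ*mak-1* and 0 reads in Δ*mak-2*. It was at 7.48 RPKM in the wild type, 8.08 RPKM in Δ*mak-1* and 6.69 RPKM in Δ*mak-2* at the protoperithecial stage, from 70, 84 and 64 reads. The 3 protoperithecial levels were nearly level. Stage ratios were 55.2 (9.58 to 2210) in the wild type and 38.5 (10.3 to 323) in Δ*mak-1*. In Δ*mak-2*, *xlr-1* was at least 18.1-fold higher at the protoperithecial stage against the same floor, and the exact interval of that ratio began at 14.3. Mutant to wild-type ratios at that stage were 1.08 (0.777 to 1.5) and 0.895 (0.628 to 1.27), both with intervals that contain 1.

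*cre-1*, which encodes the repressor, was among the more abundant of the 8 genes in every library, and its order among the strains differed between stages. In vegetative hyphae it was at 390 RPKM in the wild type, 706 RPKM in Δ*mak-1* and 173 RPKM in Δ*mak-2*. By the protoperithecial stage it was at 335 RPKM in the wild type, 166 RPKM in Δ*mak-1* and 206 RPKM in Δ*mak-2*. Δ*mak-1* was thus the highest library in vegetative hyphae and the lowest at the protoperithecial stage. The stage ratio was 0.861 (0.813 to 0.911) in the wild type, 0.235 (0.222 to 0.250) in Δ*mak-1* and 1.19 (1.11 to 1.29) in Δ*mak-2*, so only Δ*mak-1* was called. On the deposited scale the stage ratio of Δ*mak-1* was 0.274 (0.252 to 0.297) of that of the wild type. In Δ*mak-1* it was 0.164 with the median of ratios, 0.172 with the upper quartile and 0.248 with β-tubulin. These were closer to the wild-type values on the same scales, given next, and still called lower. The call in the wild type and the direction in Δ*mak-2* depended on the scale. Rescaling by the median of ratios gave 0.491 in the wild type, which would be called lower, and 0.709 in Δ*mak-2*, on the other side of 1. The upper quartile gave 0.489 and 0.754, and the level of a β-tubulin gene (NCU04054) gave 0.585 and 0.687.

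Against the wild type, vegetative Δ*mak-1* had 1.81 (1.72 to 1.90) of the *cre-1* level, short of the fold used, and vegetative Δ*mak-2* had 0.443 (0.413 to 0.476) and was called lower. With β-tubulin the second value was 0.526 and the call was lost. In protoperithecial libraries, Δ*mak-1* had 0.495 (0.464 to 0.529) and was called lower, again lost with β-tubulin at 0.516, and Δ*mak-2* had 0.615 (0.577 to 0.655). Set against *clr-1* in the same library, *cre-1* was 87.4-fold higher in wild-type vegetative hyphae and 10.6-fold higher at the protoperithecial stage. The same ratio went from 136 to 3.79 in Δ*mak-1* and from 32.7 to 4.44 in Δ*mak-2*. It was lower at the protoperithecial stage in all 3 strains and widest apart in Δ*mak-1*.

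*col-26*, which encodes a regulator of starch use and of the glucose response, was higher in Δ*mak-1* than in the other strains at both stages. In vegetative hyphae it was at 10.3 RPKM in the wild type, 42.6 RPKM in Δ*mak-1* and 9.47 RPKM in Δ*mak-2*. Protoperithecial levels were 69.5 RPKM in the wild type, 137 RPKM in Δ*mak-1* and 68.2 RPKM in Δ*mak-2*. The wild type and Δ*mak-2* did not differ beyond counting error at either stage, with ratios of 0.920 (0.662 to 1.28) and 0.982 (0.880 to 1.10). The vegetative ratio of Δ*mak-1* to the wild type was 4.14 (3.24 to 5.35), with 97.2% of the tested entries at a lower ratio. The protoperithecial ratio was 1.97 (1.8 to 2.16), just short of the fold, and it was 2.05 with β-tubulin. Its stage ratio was 6.75 (5.32 to 8.66) in the wild type, 7.20 (5.69 to 9.23) in Δ*mak-2* and 3.21 (2.88 to 3.60) in Δ*mak-1*. On the deposited scale the stage ratio of Δ*mak-1* was 0.476 (0.362 to 0.621) of the wild-type one. The 2 were closer after rescaling, at 2.24 in Δ*mak-1* and 3.85 in the wild type with the median of ratios. With β-tubulin they were 3.38 and 4.58.

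*rco-3*, which encodes the glucose sensor and which RefSeq lists as *sor-4* with *rco-3* as a synonym, was also highest in Δ*mak-1* at both stages. In vegetative hyphae it was at 9.04 RPKM in the wild type, 24.7 RPKM in Δ*mak-1* and 18.2 RPKM in Δ*mak-2*. Protoperithecial levels were 39.7 RPKM in the wild type, 97.9 RPKM in Δ*mak-1* and 40.7 RPKM in Δ*mak-2*. In vegetative hyphae both mutants were above the wild type, whereas at the protoperithecial stage Δ*mak-2* lay at the wild-type level, at 1.02 (0.853 to 1.23). The Δ*mak-1* ratio was 2.73 (1.93 to 3.94) in vegetative hyphae and 2.47 (2.12 to 2.88) at the protoperithecial stage, and the first was 1.84 with β-tubulin and no longer called. The vegetative Δ*mak-2* ratio of 2.01 (1.38 to 2.97) passed the fold only narrowly. It was 1.91 with the median of ratios and 1.85 with the upper quartile. The stage ratio of *rco-3* was 4.39 (3.15 to 6.25) in the wild type and 3.97 (3.31 to 4.77) in Δ*mak-1*. In Δ*mak-2* it was 2.24 (1.76 to 2.87), and with the 3 rescalings it was 1.29 to 1.42 and was not called.

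The glucose transporters *glt-1* and *hgt-1* gave the widest stage ratios among the 6 genes that passed 10 RPKM, in opposite directions. *glt-1*, known as a transporter of low affinity, was at 1081 RPKM in wild-type vegetative hyphae, 3648 RPKM in Δ*mak-1* and 1513 RPKM in Δ*mak-2*. Protoperithecial levels were 14.5 RPKM in the wild type, 3.01 RPKM in Δ*mak-1* and 22.3 RPKM in Δ*mak-2*. Each vegetative library was above each protoperithecial library, and Δ*mak-1* held both the highest and the lowest value. Vegetative *glt-1* was above 98.7% of all entries in the wild type and above 99.8% in Δ*mak-1*. The stage ratio was 0.0134 (0.0108 to 0.0164) in the wild type and 0.0148 (0.0125 to 0.0174) in Δ*mak-2*, which is 74.8-fold and 67.7-fold lower. In Δ*mak-1* it was 1211-fold lower, with 0.0472% of the tested entries at a lower ratio. The stage ratio of Δ*mak-1* was 0.0617 (0.0369 to 0.0991) of the wild-type one, and that of Δ*mak-2* was 1.10 (0.846 to 1.45) times it.

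Between strains, vegetative *glt-1* in Δ*mak-1* was 3.38-fold (3.28 to 3.48) the wild type, and in Δ*mak-2* it was 1.40-fold (1.35 to 1.45). On crossing medium, Δ*mak-1* had 0.208 (0.125 to 0.334) of the wild-type level from 22 reads against 95, and Δ*mak-2* had 1.55 (1.19 to 2.02). Δ*mak-1* was therefore above the wild type at one stage and below it at the other, under the deposited scale and all 3 rescalings, whose ratios were 2.27 to 2.57 in vegetative hyphae and 0.194 to 0.217 at the protoperithecial stage.

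*hgt-1*, known as a transporter of high affinity, had 6 reads (1.10 RPKM) in wild-type vegetative hyphae, 4 reads (0.568 RPKM) in Δ*mak-1* and 3 reads (0.499 RPKM) in Δ*mak-2*. Protoperithecial levels were 418 RPKM in the wild type, 1281 RPKM in Δ*mak-1* and 860 RPKM in Δ*mak-2*, from 2890, 9850 and 6079 reads. It was close to silent in all 3 vegetative libraries and the most abundant of the 8 genes in all 3 protoperithecial ones. Stage ratios were 380 (174 to 1035) in the wild type, 2255 (880 to 8277) in Δ*mak-1* and 1722 (589 to 8355) in Δ*mak-2*. Because the vegetative counts were so few, the ratio of the Δ*mak-2* to the wild-type stage ratio, 4.54, had an interval of 0.968 to 28.0 that contains 1, while that of Δ*mak-1*, 5.94, had one of 1.41 to 28.6. In the protoperithecial libraries alone, where counts were high, Δ*mak-1* had 3.07-fold (2.94 to 3.20) and Δ*mak-2* 2.06-fold (1.97 to 2.15) the wild-type level, the second with an interval that contains the fold of 2.

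The balance of the 2 transporters turned over between stages. In vegetative hyphae, *glt-1* was 983-fold (451 to 2679) above *hgt-1* in the wild type, 6423-fold (2508 to 23577) in Δ*mak-1* and 3031-fold (1037 to 14700) in Δ*mak-2*. On crossing medium, *hgt-1* was 28.9-fold (23.5 to 35.8) above *glt-1* in the wild type, 425-fold (281 to 679) in Δ*mak-1* and 38.5-fold (32.7 to 45.6) in Δ*mak-2*. At the protoperithecial stage the intervals of the wild type and Δ*mak-2* overlapped and that of Δ*mak-1* did not overlap either, while in vegetative hyphae all 3 overlapped. No scaling between libraries enters a ratio within one. The summed RPKM of both transporters was 1082 in the wild type, 3649 in Δ*mak-1* and 1513 in Δ*mak-2* in vegetative hyphae, and 432, 1284 and 882 at the protoperithecial stage. It was lower at the protoperithecial stage in all 3 strains and highest in Δ*mak-1* at both stages.

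**Figure D2:**
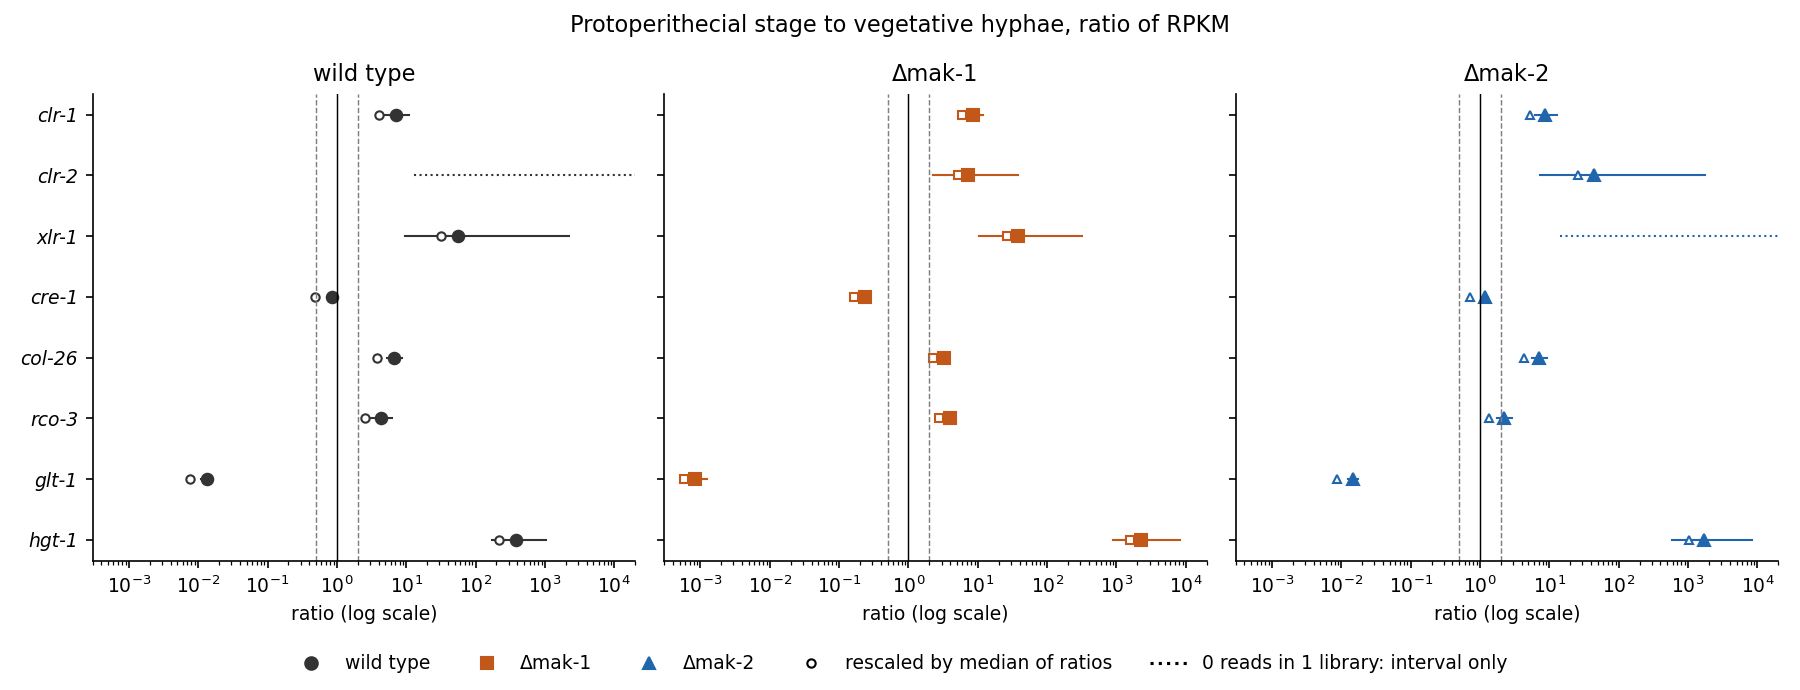
Ratio of RPKM at the protoperithecial stage to that in vegetative hyphae (log axis) for the 8 genes in each strain, with exact 95% counting intervals; small open symbols are the ratios after rescaling by the median of ratios, dashed lines mark ratios of 0.5 and 2, and dotted bars are intervals where 1 library had 0 reads. *glt-1* stands far to the left and *hgt-1* far to the right in all 3 panels, and *cre-1* of Δ*mak-1*, at 0.235, is the one *cre-1* ratio clear of 0.5 on both scales.

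Counted over the stage comparisons, 6 of the 8 genes passed the minimum of 10 RPKM in each strain, and *clr-2* and *xlr-1* did not. In the wild type, 4 of those 6 were called higher, *clr-1*, *col-26*, *rco-3* and *hgt-1*, where 46.5% of all tested entries were called higher, and 1, *glt-1*, was called lower, where 10.3% were. In Δ*mak-1*, the same 4 were higher, against 32.6% of entries, and *glt-1* and *cre-1* were lower, against 9.48%. In Δ*mak-2*, the same 4 were higher, against 41.4% of entries, and *glt-1* was lower, against 9.41%. A call of higher was thus common among all entries in each strain. The median ratio of the tested entries was 1.86 in the wild type, 1.42 in Δ*mak-1* and 1.69 in Δ*mak-2*, and the median of the 6 genes was 5.57, 3.59 and 4.72. Rescaling by the median of ratios lowered the log2 stage ratios by 0.81 in the wild type, 0.52 in Δ*mak-1* and 0.75 in Δ*mak-2*. Among the calls higher, that of *rco-3* in Δ*mak-2* was the one lost.

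In vegetative hyphae, 4 of the 8 genes passed the minimum in the comparison of Δ*mak-1* with the wild type. Of these, *col-26*, *rco-3* and *glt-1* were higher, against 18.5% of all tested entries, and 0 were lower, against 6.77%. Against the wild type, Δ*mak-2* had 1 of 4 higher, *rco-3*, with 7.26% of entries higher, and 1 lower, *cre-1*, with 6.41% of entries lower. In Δ*mak-2* against Δ*mak-1*, 0 of 4 were higher, against 6.51%, and 3 were lower, *cre-1* at 0.245 (0.229 to 0.261), *col-26* at 0.222 (0.172 to 0.284) and *glt-1* at 0.415 (0.404 to 0.425), against 15.8%. The *glt-1* call was lost on all 3 rescalings, at 0.502 to 0.732, and the other 2 were kept. The 6 conidial markers, whose part was not tested here either, summed to 6833 RPKM in vegetative wild type, 4209 RPKM in Δ*mak-1* and 51000 RPKM in Δ*mak-2*, with none at 0. The marker *eas* alone was at 703, 2504 and 47036 RPKM in these 3 libraries and so made up most of the last sum. Of the 6 markers 1 was higher and 5 lower in Δ*mak-1*, and 1 higher and 3 lower in Δ*mak-2*, than in the wild type. The 1 higher was *eas* in both. These comparisons share libraries, so their calls are not separate evidence. The median ratio of all tested entries was 1.33 for Δ*mak-1* to the wild type, 1.08 for Δ*mak-2* to the wild type and 0.802 for Δ*mak-2* to Δ*mak-1*.

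At the protoperithecial stage, 6 of the 8 genes passed the minimum in each comparison. Δ*mak-1* had 2 of 6 higher than the wild type, *rco-3* and *hgt-1*, with 11.0% of all tested entries higher, and 2 lower, *cre-1* and *glt-1*, with 8.35% lower. Δ*mak-2* had 1 of 6 higher, *hgt-1*, with 8.56% of entries higher, and 0 lower, with 10.7% lower. Between the mutants, Δ*mak-2* had 1 of 6 higher than Δ*mak-1*, *glt-1* at 7.42 (4.72 to 12.2), with 3.05% of entries higher. It had 2 lower, *col-26* at 0.498 (0.454 to 0.547) and *rco-3* at 0.416 (0.357 to 0.482), with 7.31% lower. *col-26* was at 0.529 with the median of ratios and 0.521 with the upper quartile, and the call was lost with either. For *glt-1*, 99.9% of the tested entries had a lower ratio. *hgt-1* in Δ*mak-2* was at 0.671 (0.650 to 0.693) of the Δ*mak-1* level and was not called.

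**Figure D3:**
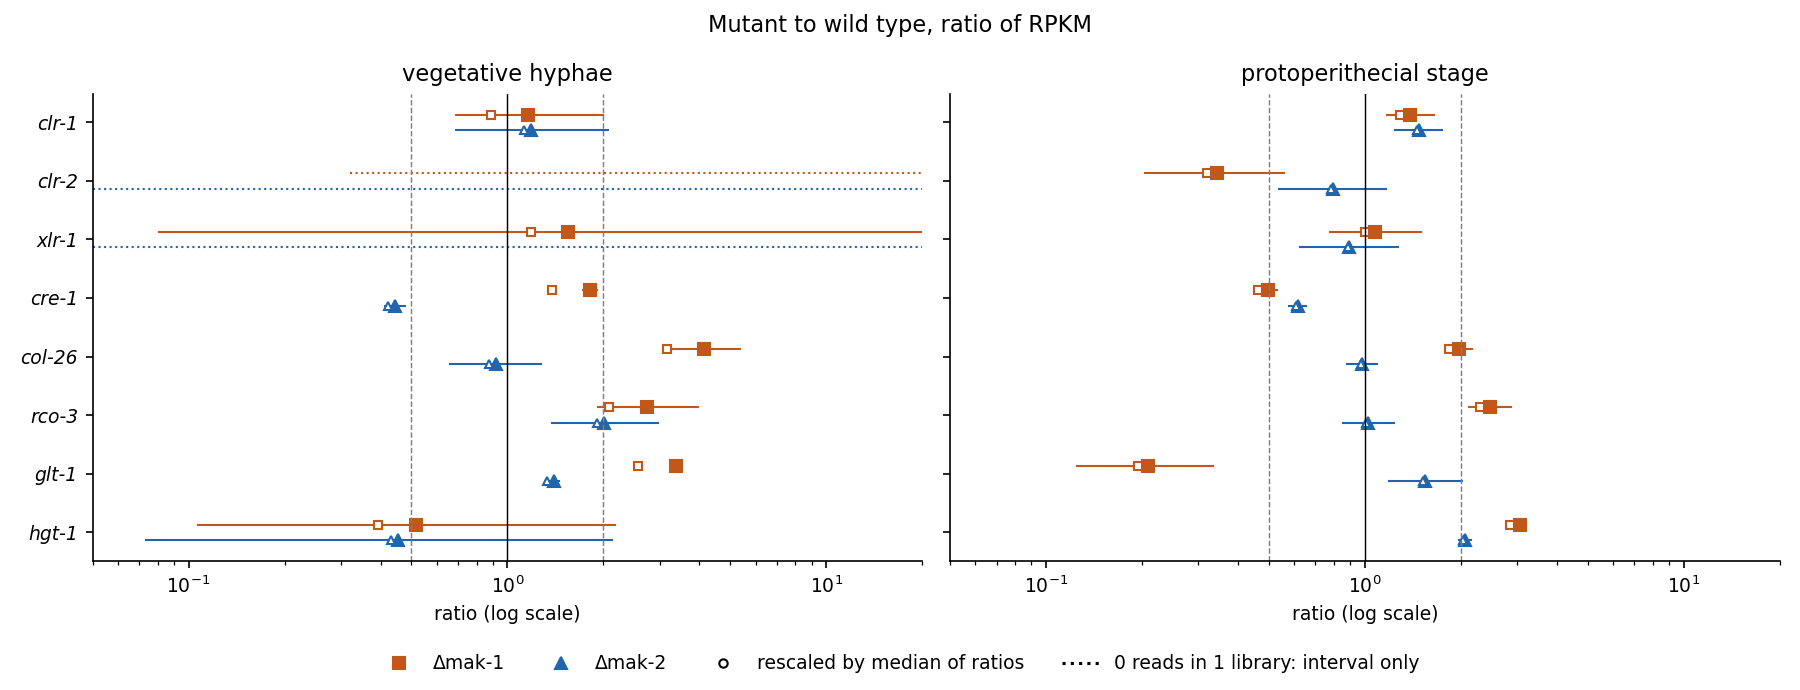
Ratio of RPKM in each mutant to the wild type (log axis) in vegetative hyphae and at the protoperithecial stage, with exact 95% counting intervals; small open symbols are the ratios after rescaling by the median of ratios, dashed lines mark ratios of 0.5 and 2, and dotted bars are intervals where 1 library had 0 reads. *glt-1* of Δ*mak-1* lies at 3.38 in the left panel and at 0.208 in the right one, and *cre-1* of Δ*mak-1* at 1.81 and 0.495.

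The order of the 8 levels within a library was similar among strains and differed between stages, RPKM being a value per length. In vegetative hyphae *glt-1* came first and *cre-1* next in each strain, *clr-1* was the fifth and *hgt-1* the sixth, and *clr-2* and *xlr-1* were last with at most 3 reads each. *col-26* and *rco-3* lay between, and in the wild type they did not differ beyond counting error, at 10.3 (8.13 to 12.9) and 9.04 (6.52 to 12.2) RPKM. At the protoperithecial stage the order was *hgt-1*, *cre-1*, *col-26* in each strain. *rco-3* and *clr-1* followed, with overlapping intervals in the wild type, at 39.7 (34.8 to 45.1) and 31.5 (27.6 to 35.8) RPKM, and in Δ*mak-2*, at 40.7 (35.8 to 46.1) and 46.4 (41.7 to 51.6) RPKM. *clr-2* and *xlr-1* were level in the wild type and in Δ*mak-2*, while in Δ*mak-1* *xlr-1* was above *clr-2* and *glt-1* lay between them.

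Most other regulators linked to the same program differed between stages by smaller ratios than *hgt-1* and *glt-1*. Of 13 further regulators, 12 were in the table, among them *stk-14*, by its name a kinase gene. In the wild-type stage comparison 11 passed the minimum, of which 6 were higher and 0 lower, with a median ratio of 2.30. Over all tested entries 46.5% were higher, with a median of 1.86. That share was near the background. They included *rco-1* at 2.32 and *rcm-1* at 3.22, which encode a corepressor pair, and *ve-1* at 2.30, a velvet family regulator. The locus NCU05846 went from 20.7 to 211 RPKM. In Δ*mak-1*, 5 of 11 were higher and 1 lower at the protoperithecial stage, against 32.6% and 9.48% of entries, and in Δ*mak-2* 6 of 11 were higher and 0 lower, against 41.4% and 9.41%, with medians of 1.94 and 2.76. *vib-1*, a regulator needed for the response to cellulose, was not called in any strain, at 1.48 in the wild type, 0.660 in Δ*mak-1* and 1.54 in Δ*mak-2*. Between mutants and the wild type, NCU04295 had the one call at the protoperithecial stage, at 2.76 in Δ*mak-1* and 2.19 in Δ*mak-2*. Of all entries 11.0% were higher and 8.35% lower in Δ*mak-1*, and 8.56% and 10.7% in Δ*mak-2*. In vegetative hyphae 0 of 10 were higher and 1 lower in Δ*mak-1*, against 18.5% and 6.77% of entries. In Δ*mak-2* 1 was higher and 1 lower, against 7.26% and 6.41%.

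Among 7 genes of glucose phosphorylation and cyclic AMP signalling, 3 of the 6 that passed the minimum were higher and 0 lower at the wild-type protoperithecial stage, with a median ratio of 2.02, again near the 46.5% and 1.86 of all tested entries. In Δ*mak-1* 1 of 6 was higher and 0 lower between stages, against 32.6% and 9.48% of entries. In Δ*mak-2* 1 of 5 was higher and 1 lower, against 41.4% and 9.41%. NCU00575, annotated in the table as a putative glucokinase, which phosphorylates glucose after uptake, was at 193 RPKM in wild-type vegetative hyphae, 762 RPKM in Δ*mak-1* and 273 RPKM in Δ*mak-2*. On crossing medium it was at 494, 615 and 378 RPKM. As with *glt-1* and *col-26*, its vegetative level was highest in Δ*mak-1*, at 3.95-fold (3.69 to 4.23) the wild type. The hexokinase gene *emp-1* (NCU02542) was called in no comparison with the wild type, and its vegetative Δ*mak-1* ratio was 1.20 (1.11 to 1.31). The G protein-coupled receptor gene *gpr-4* was at 0.398 (0.282 to 0.556) in that comparison and was called lower. No gene of this list was called in either mutant at the protoperithecial stage. Of all entries 11.0% were higher and 8.35% lower there in Δ*mak-1*, and 8.56% and 10.7% in Δ*mak-2*.

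The 11 other loci listed as sugar transporters ran with *hgt-1* rather than with *glt-1*. In the wild type 9 passed the minimum, 9 were higher at the protoperithecial stage and 0 lower, with a median ratio of 51.4. Over all tested entries 46.5% were higher and 10.3% lower, with a median ratio of 1.86. In Δ*mak-1* 8 of 11 were higher, and in Δ*mak-2* 10 of 11, with 0 lower in either. The shares of all entries were 32.6% and 41.4% higher, and 9.48% and 9.41% lower. The cellodextrin transporter gene *cdt-2*, whose protein imports short chains released from cellulose, was at 0, 0.566 and 0.663 RPKM in vegetative hyphae, naming the wild type, Δ*mak-1* and then Δ*mak-2*, and at 953, 1454 and 1232 RPKM at the protoperithecial stage. Its partner *cdt-1* went from 2.21 to 188 RPKM in the wild type. Of the 13 transporters compared, *hgt-1* included, *glt-1* alone had a lower RPKM at the protoperithecial stage than in vegetative hyphae in any strain. That holds on the deposited scale, where NCU00821 in Δ*mak-1* was close to level, at 48.4 RPKM in vegetative hyphae and 52.1 RPKM at the protoperithecial stage. In vegetative Δ*mak-1*, the xylose transporter NCU00821 was at 48.4 RPKM against 1.63 RPKM in the wild type, and NCU05627 at 29.1 against 1.37 RPKM. These 2 and NCU00809 were the 3 that passed the minimum in that comparison, and all 3 were called higher, against 18.5% of entries. In vegetative Δ*mak-2* 0 were called, of 1 that passed, against 7.26% of entries higher and 6.41% lower. Among protoperithecial libraries, 3 of 11 were higher and 0 lower in Δ*mak-1*, against 11.0% and 8.35% of entries. There, Δ*mak-2* had 2 higher and 1 lower, against 8.56% and 10.7%. *cdt-1*, *cdt-2* and NCU04963 had ratios of 1.29 to 1.74 in the 2 mutants, below the fold.

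**Figure D4:**
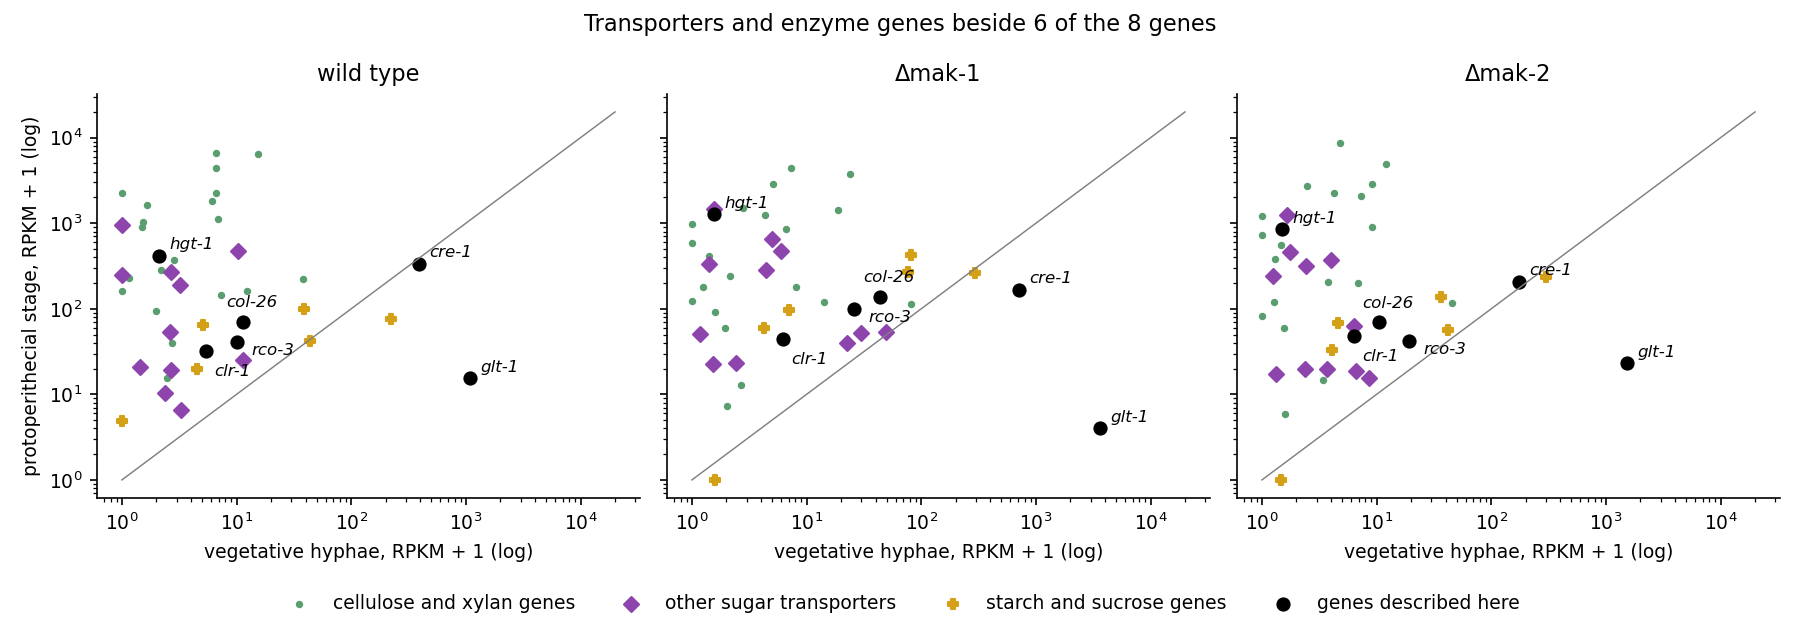
RPKM + 1 in vegetative hyphae (horizontal) against the protoperithecial stage (vertical), both on log axes, for 11 other sugar transporters, 20 cellulose and xylan genes, 6 starch and sucrose genes and 6 of the 8 genes described, 1 panel for each strain; the line marks equal values. *glt-1* is the one transporter below the line, while *hgt-1* sits among the other transporters at the upper left.

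The targets of these regulators were measured in the same libraries. Of 20 genes for cellulose and xylan use, 20 were higher at the wild-type protoperithecial stage, with a median ratio of 375. In Δ*mak-1* it was 18 of 19, with 209, and in Δ*mak-2* 19 of 19, with 425. Of all tested entries 46.5%, 32.6% and 41.4% were higher in these 3 comparisons. In Δ*mak-1* at that stage, 0 of the 20 were higher than in the wild type and 6 lower, against 11.0% and 8.35% of entries. Their median ratio was 0.656, against 1.05 over all tested entries. In the same library *clr-2*, *clr-1*, *xlr-1* and *cre-1* were at 0.343, 1.39, 1.08 and 0.495 of the wild type. A link between these levels and the enzyme genes was not tested. The major cellobiohydrolase gene *cbh-1* was at 6569 RPKM in the wild type, 4454 RPKM in Δ*mak-1* and 8597 RPKM in Δ*mak-2*. In Δ*mak-2*, 1 was higher, the xylanase gene *gh10-2* at 4.11 (3.66 to 4.63), and 4 lower, against 8.56% and 10.7% of entries. The median was 0.785, against 0.998 over all tested entries. In vegetative hyphae 4 of the 20 passed the minimum in Δ*mak-1* against the wild type, of which 2 were higher, against 18.5% of entries. In Δ*mak-2* 3 passed, of which 0 were called, against 7.26% of entries higher and 6.41% lower.

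The 6 genes of starch and sucrose breakdown differed in another way. *col-26* is known as a regulator of starch use, and its part in these differences was not tested. At the wild-type protoperithecial stage 3 of the 5 that passed the minimum were higher and 1 lower, against 46.5% and 10.3% of entries. The same comparison gave 4 of 5 higher in Δ*mak-1* and 3 of 5 in Δ*mak-2*, with 0 lower in either. Of all entries 32.6% and 41.4% were higher, and 9.48% and 9.41% lower. Between strains at that stage, 4 of 5 were higher in Δ*mak-1* than in the wild type and 0 lower, with a median ratio of 3.13, against 11.0% of entries higher. The invertase gene *inv*, whose product splits sucrose, was at 41.2 RPKM in the wild type, 425 RPKM in Δ*mak-1* and 135 RPKM in Δ*mak-2*, ratios of 10.3 (9.14 to 11.6) and 3.27 (2.87 to 3.73). The glucoamylase gene *gla-1* was at 97.3, 265 and 55.4 RPKM. In Δ*mak-2*, 2 of 5 were higher and 0 lower, with a median of 1.72, against 8.56% and 10.7% of entries. In vegetative hyphae 1 of 3 was higher in Δ*mak-1*, *gla-1* at 2.02 (1.73 to 2.36), and 0 of 3 in Δ*mak-2*, against 18.5% and 7.26% of entries. The lists of transporters, enzymes and regulators were drawn up from known roles and with earlier results of these data known, so their counts are descriptions.

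The genes whose pattern was most like each of the 8 were found among 7555 entries of at least 50 reads, by the root mean square difference of centred log2(RPKM + 1) over the 6 libraries, where 0 means the same pattern. A pseudocount of 1 RPKM flattens genes as low as *clr-2* and *xlr-1*, so their likeness is set mainly by the protoperithecial libraries. The measure is not scaled to the size of a gene's changes. Distances of genes with wide changes, such as *glt-1* and *hgt-1*, are therefore not comparable with those of the others. *hgt-1* was nearest to NCU08491 (0.28), which was listed at 0 in all 3 vegetative libraries and 161 RPKM in the wild type, 721 RPKM in Δ*mak-1* and 557 RPKM in Δ*mak-2* on crossing medium. The next were *gh61-1*, a cellulose-active monooxygenase gene, and *cdt-2* (0.66 and 0.67). *glt-1* was nearest to NCU06940 (0.53), at 1952, 5294 and 2840 RPKM in vegetative hyphae and 27.6, 16.9 and 36.8 RPKM at the protoperithecial stage. The strains stood in the same order for both genes at each stage. NCU04276 and NCU08720 followed at 0.82 and 0.84. The nearest entry was at 0.15 for *clr-1* (NCU05990), 0.13 for *clr-2* (NCU04069), 0.11 for *xlr-1* (NCU00872), 0.28 for *cre-1* (NCU11349), 0.16 for *col-26* (NCU04665) and 0.20 for *rco-3* (NCU06479). The files and RefSeq give none of these 6 loci a gene name. Among the 8 genes themselves, *clr-1* and *xlr-1* were the nearest pair by this measure, at 0.24.

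Direct neighbours of the 8 genes were read in the same libraries. By RefSeq gene order, *rco-3* lies beside the glucoamylase gene *gla-2*, which went from 3.52 to 18.6 RPKM between stages in the wild type, 3.29 to 58.2 RPKM in Δ*mak-1* and 3.10 to 32.0 RPKM in Δ*mak-2*. Both were thus highest in Δ*mak-1* at the protoperithecial stage, while in vegetative hyphae *gla-2* had 0.934 (0.578 to 1.52) of the wild-type level in Δ*mak-1* and 0.881 (0.529 to 1.47) in Δ*mak-2*. *hgt-1* lies beside NCU10020, which was at 77.8 to 119 RPKM in all 6 libraries, where *hgt-1* spanned 0.499 to 1281 RPKM. *glt-1* lies beside *aro-1*, at 1.22 to 2.75 RPKM throughout. *col-26* lies beside *ccg-14*, a very abundant vegetative transcript that went from 33222 to 129 RPKM in the wild type, opposite in direction to *col-26*. *cre-1* lies beside *bdp-1*, which went from 46.3 to 14.3 RPKM in the wild type, 99.9 to 12.9 RPKM in Δ*mak-1* and 69.9 to 14.2 RPKM in Δ*mak-2*. The counting setting for strand is not given in the sources used here, so reads of overlapping neighbours cannot be told apart.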

How the data were processed

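RNA-seq was done on mycelia of 6 conditions, 1 library each from mixed RNA of 3 repeats, by single-end Illumina sequencing. The authors deposited 1 table of RPKM, in which reads were scaled by exon length and by mapped reads. CASAVA 1.8 is named in the submitters' processing notes. How reads were aligned, on which build, and how they were counted or split by strand is not given in the sources used here. Deposited quotients between libraries were not used.

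Whole reads were recovered from the RPKM values, since a gene's values are whole multiples of what 1 read is worth. Of 8913 entries above 0 in 2 or more libraries, 8913 gave whole reads in all libraries. All their values above 0 were given back within the larger of a relative tolerance of 1e-09 and an absolute one of 1e-06 RPKM. The recovery was tested on simulated data. Ratios of deposited RPKM were given exact (Clopper-Pearson) 95% intervals from these reads. Against 0 reads, ratios were bounded by a floor of 3 reads in that library. Calls used the study's rule of more than 2-fold and more than 10 RPKM in at least 1 library. With 1 library per condition no test was run, and the 3 strains were not used as replicates of a stage. Alternatives were 3 rescalings (median of ratios, upper quartile, β-tubulin), folds of 1.5 and 3, minimums of 0, 1 and 20 RPKM, 1 RPKM added, and the whole interval past the fold.

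The members and the lists (13 other regulators, 7 carbon signalling genes, 11 sugar transporters, 20 cellulose and xylan genes, 6 starch and sucrose genes, 6 conidial and 3 protoperithecial markers) were chosen with earlier results of these data known. Genes named were the 8, those in the lists, the deleted genes, direct neighbours in RefSeq (assembly NC12, used for names and gene order), and the 3 entries most alike each. Of the list genes, those with the clearest role or value were named after their values were seen. One locus number in a list was corrected after the design was set, because RefSeq gave it another gene name. Intervals were computed with scipy 1.17.1 on numpy 2.4.6, tables with pandas 2.3.3, and plots with matplotlib 3.10.9, under Python 3.11.15.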

Additional observations from a re-analysis of the deposited data

Results flagged for a closer look

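Several differences ran in opposite directions in 2 settings, with the counting intervals of both on opposite sides of 1, and none of these differences was tested, since each condition was 1 library. For *cre-1*, the stage ratio was 1.19 in Δ*mak-2* against 0.861 in the wild type and 0.235 in Δ*mak-1*. With each of the 3 rescalings all of these stage ratios were below 1, so neither pair kept its opposite directions. The ratio of Δ*mak-1* to the wild type was 0.495 at the protoperithecial stage and 1.81 in vegetative hyphae, and that of Δ*mak-2* to Δ*mak-1* was 1.24 and 0.245. For *glt-1*, Δ*mak-1* to the wild type was 0.208 at the protoperithecial stage and 3.38 in vegetative hyphae, and Δ*mak-2* to Δ*mak-1* was 7.42 and 0.415.

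Among the listed genes, opposite calls past 2-fold were flagged as well, on the deposited scale only. The rescalings were not applied to these ratios, so whether the calls would survive them is not shown. The regulator locus NCU04295 was at 2.76 in Δ*mak-1* and 2.19 in Δ*mak-2* relative to the wild type at the protoperithecial stage, and at 0.433 and 0.219 in vegetative hyphae. The β-glucosidase gene *gh1-1* was at 2.04 in Δ*mak-2* relative to Δ*mak-1* at the protoperithecial stage and at 0.450 in vegetative hyphae. The conidial markers at the protoperithecial stage relative to the wild type were at 10.9 (*con-6*), 4.84 (*con-8*), 31.7 (*con-10*), 71.6 (*al-1*) and 25.7 (*al-2*) in Δ*mak-1*, and at 27.3 (*con-6*), 19.2 (*con-10*) and 82.4 (*al-1*) in Δ*mak-2*, each against a ratio below 0.5 in vegetative hyphae. Their stage ratios were 18.2 for *con-8* in Δ*mak-1* against 0.275 in the wild type, and for *al-1* 22.0 in Δ*mak-1* and 12.6 in Δ*mak-2* against 0.0680.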

How the results depend on the processing

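With 1 library per condition, none of the differences has a replicate check, and the intervals of the ratios cover counting error only. Counts of 0 to 6 reads limit *clr-2*, *xlr-1* and vegetative *hgt-1*, whose ratios are known only as wide ranges. Stage changes were counted as 5, 6 and 5 of the 8 genes in the wild type, Δ*mak-1* and Δ*mak-2*, and vegetative Δ*mak-1* to the wild type as 3, and these counts stayed within 1.5 times under all 10 alternatives. The others moved. For vegetative Δ*mak-2* to the wild type, the count of 2 became 1 with the median of ratios, the upper quartile, β-tubulin, a minimum of 20 RPKM, 1 RPKM added, or the whole interval past the fold, 0 with a fold of 3, and 5 with no minimum. At the protoperithecial stage, Δ*mak-1* to the wild type went from 4 to 2 with a fold of 3. There, Δ*mak-2* to the wild type went from 1 to 3 with a fold of 1.5 and to 0 with a fold of 3 or the whole interval past the fold. Between the mutants, the vegetative count went from 3 to 5 with no minimum, where the added genes had at most 3 reads, and the protoperithecial count from 3 to 1 with a fold of 3. Of 66 ratios, 43 stayed within their interval with the median of ratios, 45 with the upper quartile, 45 with β-tubulin and 61 with 1 RPKM added. No called ratio changed direction. The labels number no replicates across groups, and a fit of stage with the strains as blocks was not run.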
